A study of Rattus norvegicus with 4 samples.

Results

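Transcript levels of 5 astrocyte markers were followed in cultures of rat cortical neurons that had been depolarized for 4 h. The set consisted of all probe sets of the array that the platform annotation assigns to Apoe, S100b, Vim or Gja1, together with the probe sets AF028784cds#1_s_at and AF028784mRNA#1_s_at. These were 8 of the 1263 probe sets on the array that are not Affymetrix controls, and they are counted as 5 genes, with the AF028784 pair as 1. The markers were chosen by their earlier measured change in this same comparison, so their values under KCl and control are a description and carry no p. The set was put together with the AF028784 pair labelled as Gfap, the gene of the astrocyte filament protein. The platform annotation used here lists neither of the 2 probe sets, so that name was not checked and they are given by their identifiers.

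The KCl group had 2 arrays from cultures given 25 mM KCl for 4 h, and the control group had 2 arrays from cultures given phosphate-buffered saline for the same time. All 4 arrays came from cortical cells taken at embryonic day 17 and kept for 14 days in Neurobasal medium with B27, a serum-free mix made for neurons, with no genetic change named in the labels. The description label words all 4 samples as unstimulated, whereas the titles and treatment protocols name the KCl group, and the groups follow the titles. Nothing in the labels says that a group's 2 arrays stand for separate cultures. The SEs and p-values therefore cover the spread among the arrays alone, which may be technical.

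Astrocytes are glial cells that support neurons, clear glutamate and potassium from the extracellular space, and couple to each other through gap junctions. In culture with neurons they are usually a minority, and a medium of this kind is used to keep their number low. Their markers are of several kinds: S100b encodes a small calcium-binding protein, Vim the intermediate filament protein vimentin, Gja1 the gap junction protein connexin 43 and Apoe the apolipoprotein that carries lipid between brain cells. Vim is also made by fibroblasts, endothelial cells and neural progenitors.

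Because these genes were higher together, the RefSeq promoter windows of the 4 named genes are shown, each 250 bases before to 50 bases after a transcript start (build GRCr8). All 4 genes matched by symbol, with 3 windows for Apoe and 1 each for the others. Both strands were searched for TGANTCA, the site of AP-1 factors such as Fos and Jun, for TGACGTCA, the cAMP response element, and for CCAAT, and no 2 matches overlapped. Capitals mark the matches, and CCAAT on the other strand reads ATTGG. The windows are chr20:36302314-36302613 on the plus strand for Gja1, chr17:81577011-81577310 on the plus strand for Vim, chr20:12381032-12381331 on the minus strand for S100b and chr1:88484650-88484949 on the minus strand for Apoe, given 5′ to 3′ on the gene's strand. In RefSeq, these protein-coding genes span bases 36302490 to 36315010 (Gja1), 81577261 to 81585746 (Vim), 12372345 to 12381159 (S100b) and 88481889 to 88485816 (Apoe) of those chromosomes, and of the 2 Apoe windows with a match the one further upstream is printed.
Gja1: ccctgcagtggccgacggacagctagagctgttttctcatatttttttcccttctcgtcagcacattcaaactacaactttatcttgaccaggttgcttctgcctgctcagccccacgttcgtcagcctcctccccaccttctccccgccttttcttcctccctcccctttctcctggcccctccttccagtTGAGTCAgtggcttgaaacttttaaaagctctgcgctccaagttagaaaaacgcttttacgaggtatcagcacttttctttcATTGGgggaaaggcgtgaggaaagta
Vim: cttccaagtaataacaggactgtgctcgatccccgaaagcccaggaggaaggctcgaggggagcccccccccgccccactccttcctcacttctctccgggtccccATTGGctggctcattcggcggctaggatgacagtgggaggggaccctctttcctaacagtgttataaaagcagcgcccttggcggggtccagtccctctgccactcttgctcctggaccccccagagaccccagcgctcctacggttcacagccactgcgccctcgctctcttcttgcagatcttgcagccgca
S100b: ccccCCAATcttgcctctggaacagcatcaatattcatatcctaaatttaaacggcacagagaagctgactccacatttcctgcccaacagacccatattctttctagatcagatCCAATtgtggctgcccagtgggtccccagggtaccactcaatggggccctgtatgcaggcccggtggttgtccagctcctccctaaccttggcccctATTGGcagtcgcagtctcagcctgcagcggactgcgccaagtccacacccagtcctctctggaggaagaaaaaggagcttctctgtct
Apoe: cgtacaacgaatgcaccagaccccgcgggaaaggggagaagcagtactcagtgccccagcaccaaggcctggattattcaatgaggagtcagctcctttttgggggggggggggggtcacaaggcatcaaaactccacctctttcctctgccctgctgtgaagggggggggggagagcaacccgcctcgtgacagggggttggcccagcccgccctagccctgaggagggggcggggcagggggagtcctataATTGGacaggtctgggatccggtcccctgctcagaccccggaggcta

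With the start counted as position 1, Gja1 held TGAGTCA at position -58. It was the 1 window of the 6 with TGANTCA, a motif found in 7.33% of 33469 such windows of the rat genome. TGACGTCA was in none of the 6 windows, against 1.83% of all. CCAAT was found once in Gja1, once in Vim, 3 times in S100b and in 2 of the 3 windows of Apoe, which overlap and share that match, against 37.5% of all windows. A match describes letters and is neither a site of binding nor a cause, and no match says only that these letters are not in this window.

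Every marker gene was higher after KCl on its brightest probe set, by 2.41-fold to 3.23-fold in the 4 whose controls lay above background and by at least 1.48-fold in Gja1. The median log2 change of the 5 genes was 1.37, also with Gja1 at its bound, against -0.09 over all tested genes. In RNA from a whole culture, more astrocytes and more of these transcripts in each astrocyte cannot be told apart. Intensities are linear and in arbitrary units, and levels of different probe sets are not comparable. The level of background comes from 19 sets that detect RNAs of bacteria and yeast, with a median of 9.05 and a highest value of 73.7. Values up to that highest value are called within background, although most background values were lower.

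S100b, on probe set S53527mRNA_s_at, reached 1558 and 966.5 on KCl 1 and KCl 2, against 460.1 and 488.5 on control 1 and control 2. Both KCl values lay above both control values, and the lower of them was 1.98 times the higher control. The means were 1262 ± 418 after KCl and 474 ± 20 in controls (SD, n = 2 arrays each), a log2 change of 1.37 ± 0.21 (SE). The other probe set of S100b, rc_AI146214_at, had 37.7 and 69.9 after KCl, against 42.3 and 37.1 in controls. All 4 of these values lay within background and the groups overlapped, so this probe set gives no level of S100b.

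Vim had 423.0 and 216.3 on the KCl arrays, against 100.1 and 136.6 on the control arrays. The groups did not overlap, but the KCl arrays were further apart than for any other marker. The log2 change of Vim was 1.37 ± 0.32 (SE), or 2.59-fold. Taken from KCl 1 alone Vim was 3.62-fold above the controls, and from KCl 2 alone 1.85-fold.

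The 2 AF028784 probe sets were both well apart between the groups, at different brightness. AF028784mRNA#1_s_at had 2679 and 1467 on KCl 1 and KCl 2, against 582.6 and 646.6 on control 1 and control 2, and its log2 change of 1.69 ± 0.24 (SE) was the highest among the brightest probe sets of the 5 genes. AF028784cds#1_s_at had 313.9 and 180.5 after KCl, against 63.3 and 72.2 in controls. KCl 1 was the highest array on both sets. Since the controls of the second set lay within background, its fold is given as at least 3.23-fold, which is the geometric KCl mean over the highest background value, beside a fitted log2 change of 1.82 ± 0.31 (SE).

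Gja1 had 128.6 and 92.0 on the KCl arrays, against 32.9 and 41.1 on the control arrays. Both control values lay within background and both KCl values above it. Gja1 was thus at least 1.48-fold higher after KCl, and the fitted log2 change of 1.56 ± 0.39 (SE) depends on that background. With a pseudocount of 32 this value was 1.03.

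Apoe was measured by 2 bright probe sets. X04979_at had 6925 and 5196 after KCl, against 2700 and 2298 in controls, a log2 change of 1.27 ± 0.15 (SE). S76779_s_at had 5374 and 3620 after KCl, against 2096 and 2275 in controls, a log2 change of 1.01 ± 0.17 (SE). On both, the 2 groups were separate, and the SE of X04979_at was the smallest of the 8 member probe sets.

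**Figure D1:**
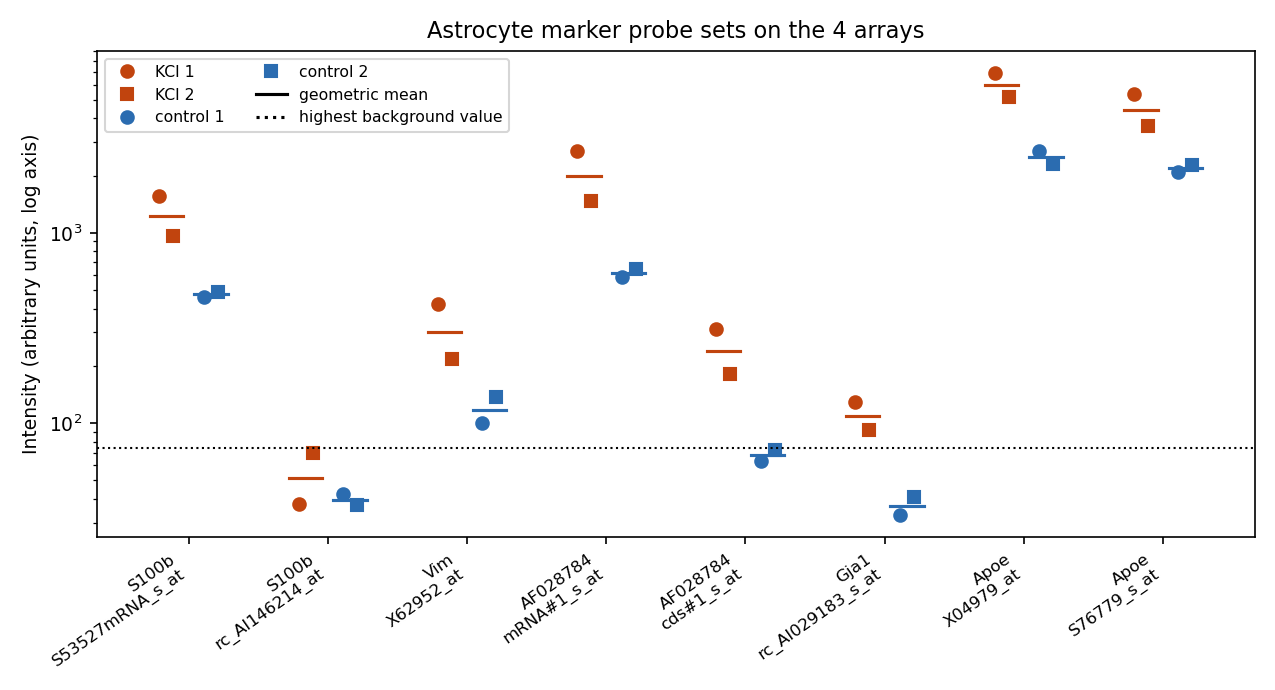
Intensities of the 8 marker probe sets on the 4 arrays, in arbitrary units on a log axis, with KCl left of control; circles are replicate 1, squares replicate 2, short lines geometric means, and the dotted line the highest background value of 73.7. On 7 of the 8 probe sets both KCl values lie above both control values and the KCl 1 circle lies above the KCl 2 square; the exception is the dim probe set of S100b.

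All 8 member probe sets passed the filter on dim probe sets, which left out means up to 33.3, and their lowest control mean was 37.0. On 7 of them both KCl values exceeded both control values, an arrangement seen in 21.4% of the 947 probe sets tested. In the limma fit across those 947, the same 7 were among the probe sets called higher (adjusted p below 0.05), which were 5.49% of all, and 0 were among those called lower, which were 5.28%. Since this contrast chose the members, nothing is read from these counts. The number of member sets past that threshold was 0 in the fits without control 1 and without control 2, 0 without the intensity trend in the variance and 0 with an ordinary t statistic. It stood at 5 without KCl 1, where Vim and Gja1 dropped out, and 7 without KCl 2.

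The folds of the markers could not be told apart by their errors, which are wide with 2 arrays in each group. Among the 10 pairs of the 5 genes, the largest difference in log2 change was 0.42 ± 0.29 (SE), between AF028784mRNA#1_s_at and Apoe, and no pair differed by more than 2 SE. These SEs treat probe sets as independent, which sets from the same 4 arrays are not. A difference below 2 SE therefore does not show that 2 folds are alike. The pairs with Gja1 used its fitted value, but the fold of Gja1 is a lower bound and has no place in an order. Of the 6 pairs without it, 3 kept their order from KCl 1 alone and from KCl 2 alone. In these 3, AF028784mRNA#1_s_at lay above Apoe, S100b and Vim. Both orders use the same control mean, so they are not independent.

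The KCl arrays differed by array for these markers. On 7 of the 8 probe sets KCl 1 was at least 1.25-fold above KCl 2, against 15.6% of the tested probe sets, and of the 45 other probe sets called higher, 8 reached that ratio. The ratio of KCl 1 to KCl 2 was 1.96 for Vim, 1.83 and 1.74 for the AF028784 pair, 1.61 for S100b (S53527mRNA_s_at), 1.48 and 1.33 for Apoe and 1.40 for Gja1. These ratios were higher than those of 88.4% to 96.7% of the tested probe sets. The dim probe set of S100b ran the other way, at 0.54. The median of the 5 genes was 1.61, against 0.95 over all tested genes. With 1 array on each side this ratio has no error of its own and was not tested, and for Vim and S100b it was known when the markers were picked.

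In the controls the order was mostly the other way, with control 1 below control 2 on 6 of the 8 probe sets. The ratio of control 1 to control 2 was 0.94 for S100b (S53527mRNA_s_at), 0.73 for Vim, 0.90 and 0.88 for the AF028784 pair, 0.80 for Gja1, and 1.18 and 0.92 for Apoe. Its median over the 5 genes was 0.90, against 1.02 over all tested genes.

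The size of the change therefore depended on the KCl array. With Gja1 at its bound, the median over the 5 genes was 3.29-fold from KCl 1 alone and 2.04-fold from KCl 2 alone. Among the 4 genes without Gja1, folds from KCl 1 alone ran from 2.78 for Apoe to 4.36 for AF028784mRNA#1_s_at. From KCl 2 alone they ran from 1.85 for Vim to 2.39 for AF028784mRNA#1_s_at. Gja1 was at least 1.74-fold higher from KCl 1 alone and at least 1.25-fold higher from KCl 2 alone.

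**Figure D2:**
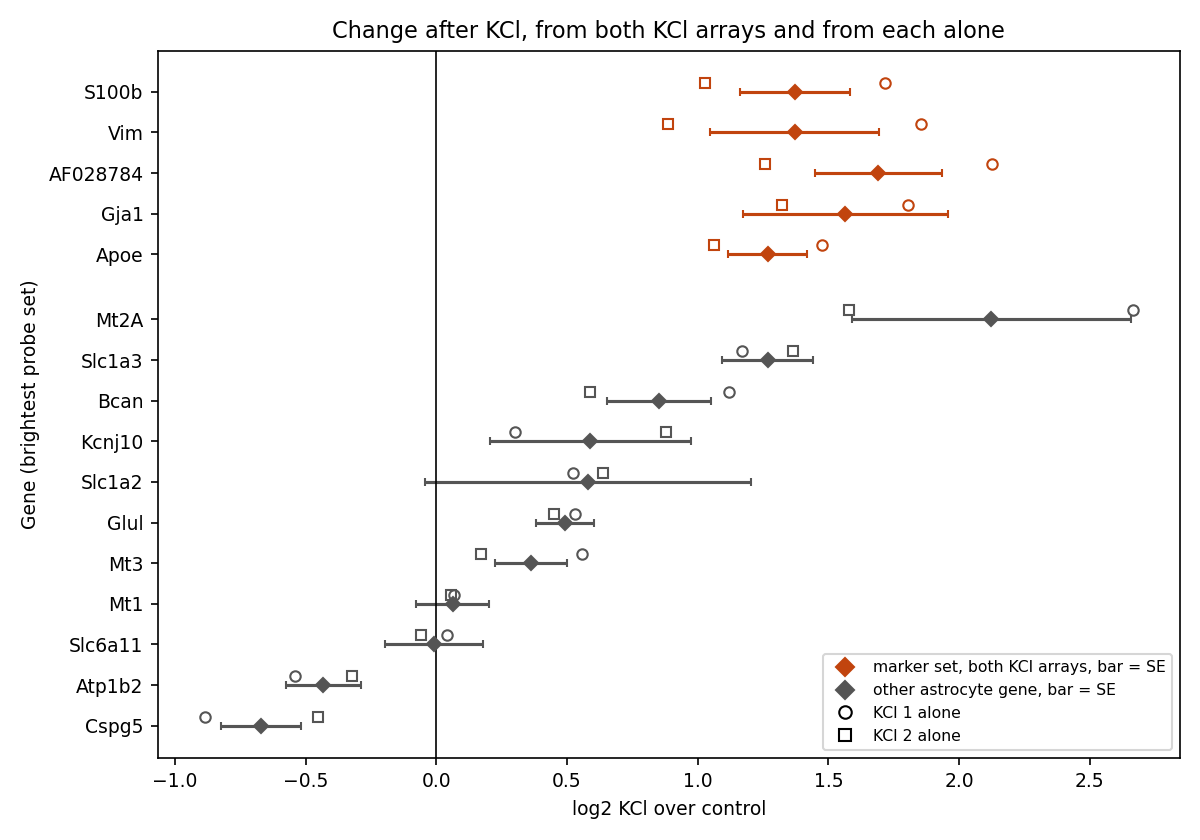
log2 ratio of KCl over control on the x axis for the brightest probe set of each marker gene (upper 5 rows) and of 11 other astrocyte genes (lower rows); diamonds with bars are the change from both KCl arrays ± SE, circles the change from KCl 1 alone and squares from KCl 2 alone. In all 5 markers the KCl 1 circle lies to the right of the KCl 2 square, whereas among the other genes it does so in 6 of 11.

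Measures of the arrays stood beside these ratios as follows. The 9 hybridization spike probe sets, RNAs added in fixed amount, had a median KCl 1 to KCl 2 ratio of 1.14, with a range of 0.98 to 1.38, and a median control 1 to control 2 ratio of 0.59. For hexokinase control probe sets, the 3′ over 5′ signal, a sign of RNA integrity, stood at 2.49 and 2.67 on the KCl arrays, against 2.25 and 2.00 on the control arrays. The same ratio for Gapdh was 1.19 and 1.17 on the KCl arrays, against 1.17 and 1.23 on the control arrays. The part of these differences in the marker values was not tested.

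Other genes that astrocytes express heavily moved in both directions. Of a list of 34 such genes without the members, 11 were tested, and by their brightest probe set 4 rose and 1 fell in limma at an adjusted p below 0.05, with 7 at an unadjusted p below 0.05. Their median log2 change was 0.49, and values ran from -0.67 to 2.12. The list was drawn up with earlier results of these data known. How many of all tested probe sets had an unadjusted p below 0.05 is not given here. Nothing is therefore read from such counts, in this list or the later ones.

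Mt2A, the gene of a metallothionein, a protein that binds metals, had 3116 and 1468 on the KCl arrays, against 923.9 and 260.7 on the control arrays. The groups were separate although both pairs were unlike, and Mt2A rose by 2.12 ± 0.53 in log2 (SE; limma adjusted p = 0.038). Slc1a3, which encodes the astrocyte glutamate transporter GLAST, had 876.1 and 1003 after KCl, against 453.7 and 333.7 in controls. It rose by 1.27 ± 0.17 (SE; limma adjusted p = 0.0024), and here KCl 2 was the higher array. A less bright probe set of Slc1a3, S75687_s_at, had 328.5 and 237.9 after KCl, against 75.5 and 113.1 in controls, so that the order of its KCl arrays was the opposite, and it also passed (limma adjusted p = 0.0081). The remaining 2 probe sets of Slc1a3 were dimmer and did not pass.

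Bcan encodes brevican, a proteoglycan of the brain matrix. It had 646.5 and 447.6 after KCl, against 280.1 and 316.6 in controls, and rose by 0.85 ± 0.20 (SE; limma adjusted p = 0.029). Its KCl 1 to KCl 2 ratio was 1.44, between 1.40 for Gja1 and 1.61 for the brightest probe set of S100b. Glul, the gene of glutamine synthetase, which turns glutamate into glutamine in astrocytes, rose by 0.49 ± 0.11 (SE; limma adjusted p = 0.025) on its brightest probe set and passed on 2 of 4, and its KCl 1 to KCl 2 ratio was 1.06.

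Cspg5, which encodes the proteoglycan neuroglycan C and is made by neurons as well, fell to 1007 and 1359 on the KCl arrays, against 1904 and 1822 on the control arrays. No KCl value reached the controls, and the log2 change was -0.67 ± 0.15 (SE; limma adjusted p = 0.025). For the remaining 6 genes the test was not passed. These included Mt3, a brain metallothionein, with 0.36 ± 0.14, and Atp1b2, a sodium pump subunit, with -0.43 ± 0.14. Mt1 had 0.06 ± 0.14 and the GABA transporter gene Slc6a11 -0.01 ± 0.19. Slc1a2, the gene of the other main astrocyte glutamate transporter, lay within background on all 4 arrays.

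None of the 11 passed without the intensity trend or with an ordinary t statistic. A fit without 1 control array takes its variance from the KCl pair alone. Calls lost in such a fit therefore do not show what the control values contribute. With quantile normalization Glul and Slc1a3 passed, with the arrays centred on the median Cspg5 and Slc1a3, and with dim probe sets kept Glul and Slc1a3. With the replicate block Mt2A and Slc1a3 passed. Without KCl 1 Bcan did not pass, and without KCl 2 Mt3 also rose and Atp1b2 also fell.

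For the difference between the KCl arrays, the 11 genes were split. KCl 1 was the higher in 6 of 11, and their median KCl 1 to KCl 2 ratio was 1.01, against 1.61 for the 5 markers. Ratios ran low for Kcnj10, a potassium channel gene of astrocytes whose KCl 1 and control values lay within background, at 0.67, for Cspg5 at 0.74 and for Slc1a3 at 0.87, and high for Mt2A at 2.12, Bcan at 1.44 and Mt3 at 1.31. No test of the difference between the lists was made.

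**Figure D3:**
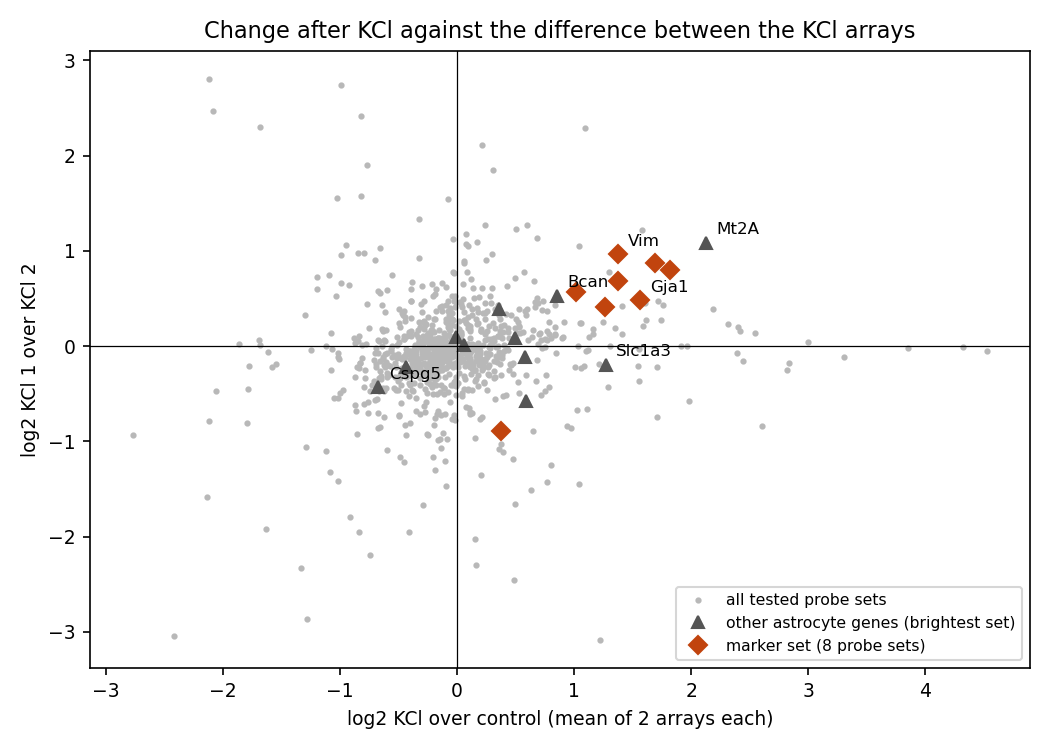
log2 KCl over control on the x axis against log2 KCl 1 over KCl 2 on the y axis for the 947 tested probe sets (grey points), with 11 other astrocyte genes as dark triangles and the 8 marker probe sets as diamonds. Of the diamonds, 7 lie in the upper right with a KCl 1 to KCl 2 ratio of 1.33 to 1.96, Mt2A and Bcan near them, while Slc1a3 lies below the zero line.

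Genes tied to the reactive state of astrocytes, in which the cells enlarge their filaments, were counted from a list of 17 without the members, of which 9 were tested. Of these, 2 rose and 0 fell in limma, with 6 at an unadjusted p below 0.05. The brightest gene of the list, Gap43, also a neuron marker, had a log2 change of -0.16 ± 0.11 (SE), with both KCl values below both controls. Stat3 had 0.29 ± 0.12 and Hspb1 0.46 ± 0.18, and none of these was called. Hmox1, the gene of heme oxygenase 1, had 810.2 and 470.7 after KCl, against 221.4 and 283.7 in controls, and rose by 1.30 ± 0.26 (SE; limma adjusted p = 0.014). Its values were separate, and its KCl 1 to KCl 2 ratio of 1.72 lay within the range of the markers. A dimmer probe set, J02722cds_at, had 195.6 and 161.5 after KCl, against 52.7 and 53.8 in controls, and also passed (limma adjusted p = 0.0066), but its KCl 1 to KCl 2 ratio was 1.21, below that range. Nos2 encodes the inducible form of nitric oxide synthase and rose by 2.60 ± 0.33 (SE; limma adjusted p = 0.0016) on 1 probe set, with 199.4 and 357.1 after KCl and, in controls, 41.5 and 46.5, which lay within background. The fitted value depends on that background. The other 4 tested probe sets of Nos2 did not pass, and of these U48829_s_at ran the other way, with 49.6 and 48.8 after KCl, against 94.9 and 75.2 in controls. Neither call was made without control 1, without control 2 or without the intensity trend, and Hmox1 was also lost with the replicate block. Neither Hmox1 nor Nos2 is limited to astrocytes.

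Nes encodes nestin, a filament protein of progenitors and reactive astrocytes. It had 375.5 and 271.2 on the KCl arrays, against 194.2 and 189.8 on the control arrays. The groups were separate, but its log2 change of 0.73 ± 0.21 (SE) did not pass (limma adjusted p = 0.059), except without KCl 2. Among intermediate filament genes other than Vim, 4 were tested and none passed in limma, with 1 at an unadjusted p below 0.05. The neurofilament genes Nefl, Nefm and Nefh, which are neuronal, had log2 changes of 0.01 ± 0.11, -0.07 ± 0.12 and 0.18 ± 0.36 (SE).

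On their brightest probe sets, relatives of S100b among calcium-binding protein genes gave no call either. Of 4 tested in limma, the number past the threshold was 0, and likewise 0 at an unadjusted p below 0.05. S100a1, a paralog of S100b, had 134.1 and 128.0 after KCl, against 97.0 and 76.6 in controls, which amounts to 0.60 ± 0.27 in log2 (SE; limma adjusted p = 0.21). A dimmer probe set of S100a1, rc_AI228548_g_at, had 94.2 and 72.1 after KCl, against 32.1 and 10.2 in controls. Its log2 change of 2.19 ± 0.67 (SE) did not pass (limma adjusted p = 0.080, unadjusted p = 0.011). All its values but that of KCl 1 lay within background, on which the fitted change depends. The calmodulin genes Calm2 and Calm3 had -0.03 ± 0.10 and -0.21 ± 0.10, and Hpca, the gene of the neuronal calcium sensor hippocalcin, had -0.22 ± 0.13. Of the lists of other gap junction genes and of other apolipoprotein and cholesterol genes, no gene was measured under its symbol, so Gja1 and Apoe stand without relatives.

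Markers of the other cells that such a culture could hold were counted beside these genes. Of 12 neuron markers tested, 1 rose in limma (Snap25) and 0 fell. At an unadjusted p below 0.05 there were 3, Snap25 higher and Syp and Syn2 lower. Snap25, which encodes a synaptic fusion protein, was not called without control 1, without control 2, with dim probe sets kept or with the replicate block, while Syp fell with quantile normalization and Syn2 fell without KCl 2. Their summed intensity was 32683 and 33349 on the KCl arrays, against 34798 and 35971 on the control arrays. The sum over the 11 other astrocyte genes was 13445 and 11166 after KCl, against 9459 and 8892 in controls. Levels of different probe sets are not comparable, so such sums lean on the brightest sets and give no amount of a cell type. Of the neuron markers, Map2 had a KCl 1 to KCl 2 ratio of 1.10 on its brightest probe set, while 3 dimmer sets above background stood at 1.96, 2.20 and 1.83, in the range of the astrocyte markers or above it. Of 5 markers of oligodendrocytes tested with limma, 3 lay within background on all 4 arrays (Mbp, Mog and Pdgfra). Among the 5, the number called was 0, as was the number at an unadjusted p below 0.05. Their sums were 560.7 and 639.3 after KCl, against 617.2 and 574.6 in controls, and Sox10, a transcription factor of that lineage, was too dim to be tested, at 5.9 and 3.6 after KCl, against 2.3 and 2.0 in controls. The 2 microglial and immune markers tested, Ccl2 and Itgam, lay within background on all arrays, with 0 calls in limma, 0 at an unadjusted p below 0.05 and sums of 80.4 and 84.7 after KCl, against 60.6 and 55.2 in controls.

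For endothelial, pericyte and fibroblast cells 2 markers were tested, Vcam1 and Pdgfrb, and 0 passed in limma, with 1 at an unadjusted p below 0.05. Their sums were 217.6 and 252.1 after KCl, against 184.8 and 167.5 in controls, and KCl 1 was below KCl 2 for both. Of the neural progenitor and radial glia list, 3 genes were tested and 1 rose, Slc1a3, which the astrocyte list also holds. Without either control array 0 passed, and without KCl 2 all 3 did, Slc1a3 and Nes higher and Hes1 lower. The part of other cell types in the Vim values was not tested.

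The activity-regulated transcription factors, genes such as Fos that neurons switch on when they fire, rose on the same arrays. In limma 10 of 10 tested were called higher, against 5.49% of all tested probe sets. Of these genes, 5 were also called without the intensity trend and 0 with an ordinary t statistic. The 10 genes were Cebpb, Crem, Egr1, Fos, Fosl2, Jun, Junb, Jund, Nr4a1 and Nr4a3, with log2 changes from 0.78 to 3.85. Their median log2 change was 1.78 and their median KCl 1 to KCl 2 ratio 1.08, against 1.37 and 1.61 for the markers.

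Finally, genes were ranked by how closely their pattern over the 4 arrays followed that of Apoe, S100b, Vim and Gja1. The measure was the Euclidean distance between log2 intensities centred on each gene's own mean, over 566 other genes, whose median distance was 1.64. Hmox1, on its brighter probe set, was the closest at 0.20. Next came the potassium channel subunit gene Kcnf1 at 0.38, the transcription factor gene Cebpb at 0.40, the glutathione transferase gene Gsta1 at 0.44 on a probe set for a gene family, and Cited2, a transcriptional co-regulator gene, at 0.45. Bcan followed at 0.55, Jund at 0.58, the MHC light chain gene B2m at 0.60 and Jun at 0.60. The last of the 10, Scnn1g at 0.60, lay within background throughout.

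To the mean pattern of the AF028784 pair, Hmox1 was again the nearest at 0.47, then Cited2 at 0.52, Kcnf1 at 0.62, Agtr1b at 0.69 with all values within background, and Cebpb at 0.75. A match over 4 arrays rests mainly on the difference between the groups. Leaving aside Hmox1 at 1.72 and Bcan at 1.44, the KCl 1 to KCl 2 ratios of these genes ran from 1.00 for Scnn1g to 1.35 for Jun, against 1.33 to 1.96 for the brightest probe sets of the markers.

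**Figure D4:**
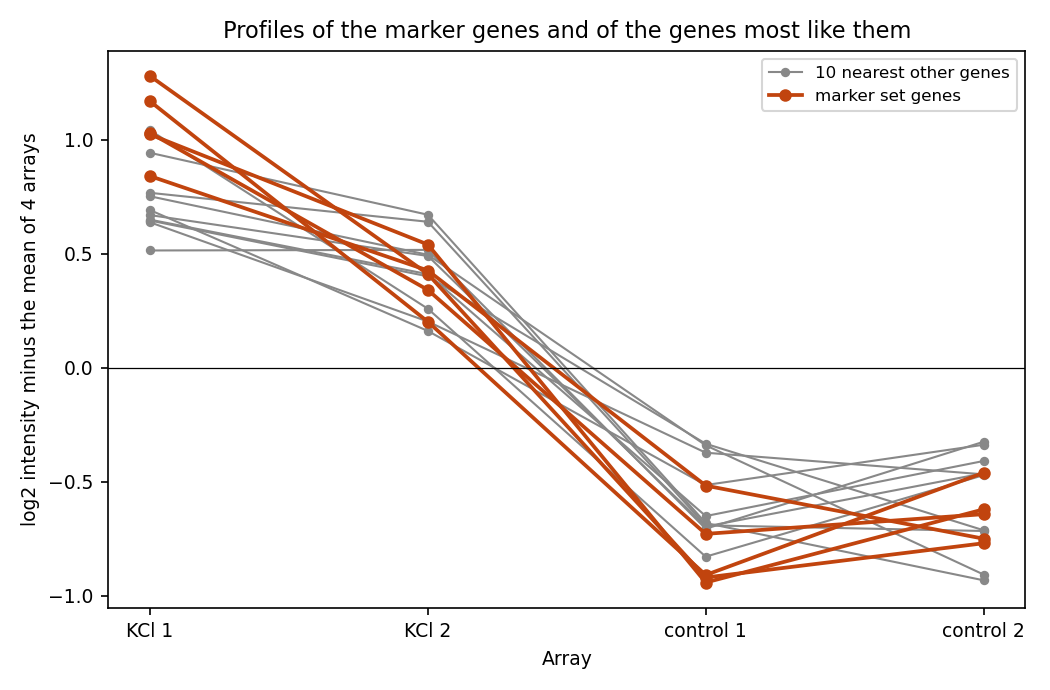
Profiles over the 4 arrays (x axis) of log2 intensity minus each gene's mean (y axis), for the 5 marker genes in colour and, in grey, the 10 genes nearest to the mean profile of Apoe, S100b, Vim and Gja1. All lines are above zero on the KCl arrays and below it on the controls, and the marker lines drop more between KCl 1 and KCl 2 than most grey lines.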

How the data were processed

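Biotin-labelled cRNA from 5 µg of total RNA was hybridized to 1-colour Affymetrix neurobiology arrays, per the labels' protocols. Each deposited value is a linear intensity, 1 per probe set and array. No source used here gives the summary algorithm or scaling, but 2% trimmed means lay between 502.0 and 502.4 on all 4 arrays, so the deposited intensities were used as they were and taken to log2. Of 1322 probe sets 59 controls were left out. Of the rest 1137 had 1 symbol in the platform annotation, 8 several and 118 none. A filter removed the dimmest 25% by mean intensity (316, none above 33.3), and 947 were tested, with limma 3.58.1 in R 4.3.3 (lmFit, eBayes with an intensity trend), two-sided, with Benjamini-Hochberg adjustment over the 947 and a threshold of 0.05. An exact permutation test with 2 arrays against 2 could not go below p = 0.33.

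The fit was checked on simulated arrays. It called 57% of probe sets given a log2 change of 1, 91% of those given 2 and 1.2% of unchanged ones. A gene that did not pass may thus still have changed. The simulation shuffled SDs over probe sets, so it did not keep the intensity trend of the variance. A gene is represented by its brightest tested probe set. Named are all member probe sets and, for each list, the genes called and up to 4 of the brightest others. The genes nearest in pattern are the 10 and the 5 with the smallest distance. Kcnj10, Slc1a2, Sox10, Mbp, J02722cds_at, U48829_s_at, rc_AI228548_g_at and the dimmer Map2 sets fall outside this rule. They were picked with their values in view, as was the 1.25-fold threshold. Alternatives comprised quantile normalization, centring on the median, a pseudocount of 32, a replicate block, a dim filter of 50% or none, leaving out each array, no intensity trend and an ordinary t statistic. The members and gene lists were chosen with earlier results of these data known. The number of arrays limits the precision, with a median SE of 0.21 in log2.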

Additional observations from a re-analysis of the deposited data

How the results depend on the processing

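The median log2 change of the 5 genes ran from 1.06 to 1.81 over the fits that leave out 1 array each (1.72 in place of 1.81 with Gja1 at its bound), was 1.26 with the pseudocount, which took Gja1 to 1.03 and AF028784cds#1_s_at to 1.44, and lay between 1.37 and 1.42 under the other scalings, filters and the block. The median log2 ratio of KCl 1 to KCl 2 lay between 0.67 and 0.79. The dim probe set of S100b ran from -0.071 without KCl 2 to 0.82 without KCl 1.

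Counts of calls depended more on the setting. Over the leave-one-out fits the probe sets called numbered 10 to 72 higher and 1 to 106 lower, and the other astrocyte genes 0 to 5 higher and 0 to 2 lower. The lowest counts came without control 1 or control 2. Probe sets called lower numbered 31 with quantile normalization and 33 with no filter. Without the intensity trend 18 were higher and 3 lower, and with an ordinary t statistic 0 and 0. Other astrocyte genes called higher were 2 with quantile normalization, 1 with centring on the median, 2 with no filter, and 0 without the trend or with the ordinary t statistic; those called lower were 0 in these settings except centring. The replicate block gave 35 higher and 15 lower probe sets, and 2 and 0 other astrocyte genes. The labels share replicate numbers across groups but do not say that they pair samples, and the deviations of same-numbered arrays had a correlation of -0.032. Of the member sets 5 stayed past the threshold with quantile normalization, centring, no filter or the block, and 6 of 6 tested with the 50% filter. Leaving out an array leaves 1 sample in a group, assumed to vary like the pair of the other group. The cause of the other shifts was not tested.

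The controls of Gja1 and AF028784cds#1_s_at, and all values of the dim probe set of S100b, lie within background, which limits their folds.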
